A study of Mus musculus with 12 samples.

Results

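The 7 genes described here encode components of complement: C1qa, C1qb and C1qc, the chains of the C1q recognition molecule; Serping1, the C1 inhibitor; C4b and C3, the proteins that are cleaved and attached to a target; and Cfb, the factor B protease of the alternative pathway. They were taken by symbol from a deposited table of 22552 mouse genes, and all 7 were in it. The study profiled RNA of C57Bl/6 mice homozygous for a knockout of Lbr (LBR_KO) or of Lmna (LMNA_KO) and of wild-type animals (wt), bred from heterozygous parents so that knockouts and wild types of a litter could be compared. Lbr encodes the lamin B receptor of the inner nuclear membrane, and Lmna encodes lamins A and C of the nuclear lamina. The 12 samples were 6 of myoblasts, the precursor cells of muscle, and 6 of striated muscle, and the table holds 7 columns, 1 per group.

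A column stands for 2 samples in each knockout group and in wild-type muscle, whose single column serves both muscle knockouts. The 2 columns of wild-type myoblasts, that of the Lbr litter and that of the Lmna litter, stand for 1 library each. The ages of the animals, the part of each gene that was deleted and the way in which samples were combined into a column are not stated in the labels or the design text. No column carries a replicate error, so that differences within a tissue are descriptions of these libraries without a replicate check. Myoblast RNA went through the NuGEN Ovation kit and muscle RNA through the NuGEN complete protocol, so that tissue and kit cannot be told apart.

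Complement is a cascade of proteins that marks microbes, immune complexes and dying cells for removal. C1q binds the target and starts the classical pathway, in which C4 and C2 form an enzyme that cleaves C3; factor B takes the place of C2 in the alternative pathway, and the C1 inhibitor blocks the proteases attached to C1q. Most plasma complement comes from the liver, whereas C1q is made chiefly by macrophages and related myeloid cells, and C3, C4, factor B and the C1 inhibitor are also made by fibroblasts, endothelial cells and other stromal cells.

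The promoters of 3 of the 7 members could be read from the RefSeq table of build GRCm38.p6, each as 300 bases from 250 before to 50 after the transcription start. They are shown because no other member had an entry there. In the results C1qb and C1qc moved together while C3 followed another pattern. All 3 lie on the minus strand and are written 5′ to 3′ along the gene. C1qb is at chr4:136886151-136886450, C1qc at chr4:136892865-136893164 and C3 at chr17:57228087-57228386. Capitals mark every match to 6 motifs searched on both strands.
C1qb: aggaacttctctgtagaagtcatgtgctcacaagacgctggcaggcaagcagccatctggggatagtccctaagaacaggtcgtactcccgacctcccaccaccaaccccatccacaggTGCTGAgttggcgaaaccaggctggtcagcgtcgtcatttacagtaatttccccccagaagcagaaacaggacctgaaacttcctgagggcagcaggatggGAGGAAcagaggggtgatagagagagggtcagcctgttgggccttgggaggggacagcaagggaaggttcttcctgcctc
C1qc: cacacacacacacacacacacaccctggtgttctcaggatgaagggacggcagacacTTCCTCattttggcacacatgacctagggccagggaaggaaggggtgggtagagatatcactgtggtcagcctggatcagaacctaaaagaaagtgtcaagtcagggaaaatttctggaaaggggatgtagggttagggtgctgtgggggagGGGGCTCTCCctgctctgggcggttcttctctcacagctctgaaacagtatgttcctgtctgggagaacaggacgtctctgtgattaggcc
C3: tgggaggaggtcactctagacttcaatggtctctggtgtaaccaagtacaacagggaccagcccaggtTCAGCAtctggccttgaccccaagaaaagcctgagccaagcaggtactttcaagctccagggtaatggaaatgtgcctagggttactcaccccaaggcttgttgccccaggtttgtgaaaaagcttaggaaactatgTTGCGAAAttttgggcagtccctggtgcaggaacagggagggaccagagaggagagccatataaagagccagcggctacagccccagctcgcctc

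The core of PU.1, a myeloid transcription factor (GAGGAA), matched C1qb at -30 to -25 and C1qc at -193 to -188 on the opposite strand, and 28.1% of 32544 promoters of this length held it. The core bound by large MAF proteins (TGCTGA, in 19.5% of promoters) matched C1qb at -131 to -126 and C3 at -182 to -177 on the opposite strand. C3 held a match to the C/EBP motif TTGCNNAA at -45 to -38 (10.8% of promoters), and C1qc a match to the NF-kappaB motif at -41 to -32 (8.49%). The STAT motif TTCNNNGAA (8.33%) and the interferon-stimulated response element core (3.45%) had no match in these windows. No marked matches overlapped. These matches describe letters and show no binding. In RefSeq gene order on GRCm38.p6, C1qb, C1qc and C1qa are consecutive genes on chromosome 4. C4b and Cfb lie in a run of genes on chromosome 17 that also holds Cyp21a1, C4a, Stk19, Dxo, Skiv2l, Nelfe and C2. C3 is elsewhere on chromosome 17 and Serping1 is on chromosome 2.

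Levels are given as FPKM, a count of sequenced fragments divided by transcript length and by the size of the library, which allow genes to be compared per length. Differences are given on the log2(FPKM + 1) scale, which understates changes of low genes, for genes that averaged 1 FPKM or more over a tissue's columns and had no compared column at 0. A gene is said to have risen or fallen when its difference on this scale was 1 or more, which is 2-fold. The targeted genes were checked first: Lbr stood at 1.87 FPKM in Lbr-knockout muscle against 11.8 in wild type, but at 7.71 FPKM in Lbr-knockout myoblasts against 16.1 and 14.7 in the wild types, a difference (-0.97) short of 2-fold. Lmna stood at 18.5 FPKM in Lmna-knockout myoblasts against 147 in their wild type, and at 22.6 FPKM in Lmna-knockout muscle against 59.5. The creatine kinase gene Ckm lay between 4488 and 5120 FPKM in the muscle columns and below 1 FPKM in the myoblast columns, where Myod1 lay between 2.09 and 5.51 FPKM. The myoblast columns also held RNA of macrophage genes, with Lyz2 between 316 and 1131 FPKM. Of these columns the wild type of the Lbr litter stood apart, at a summed level of 452 FPKM over 20 macrophage markers against 1304 to 1606 FPKM in the other 3.

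**Figure D1:**
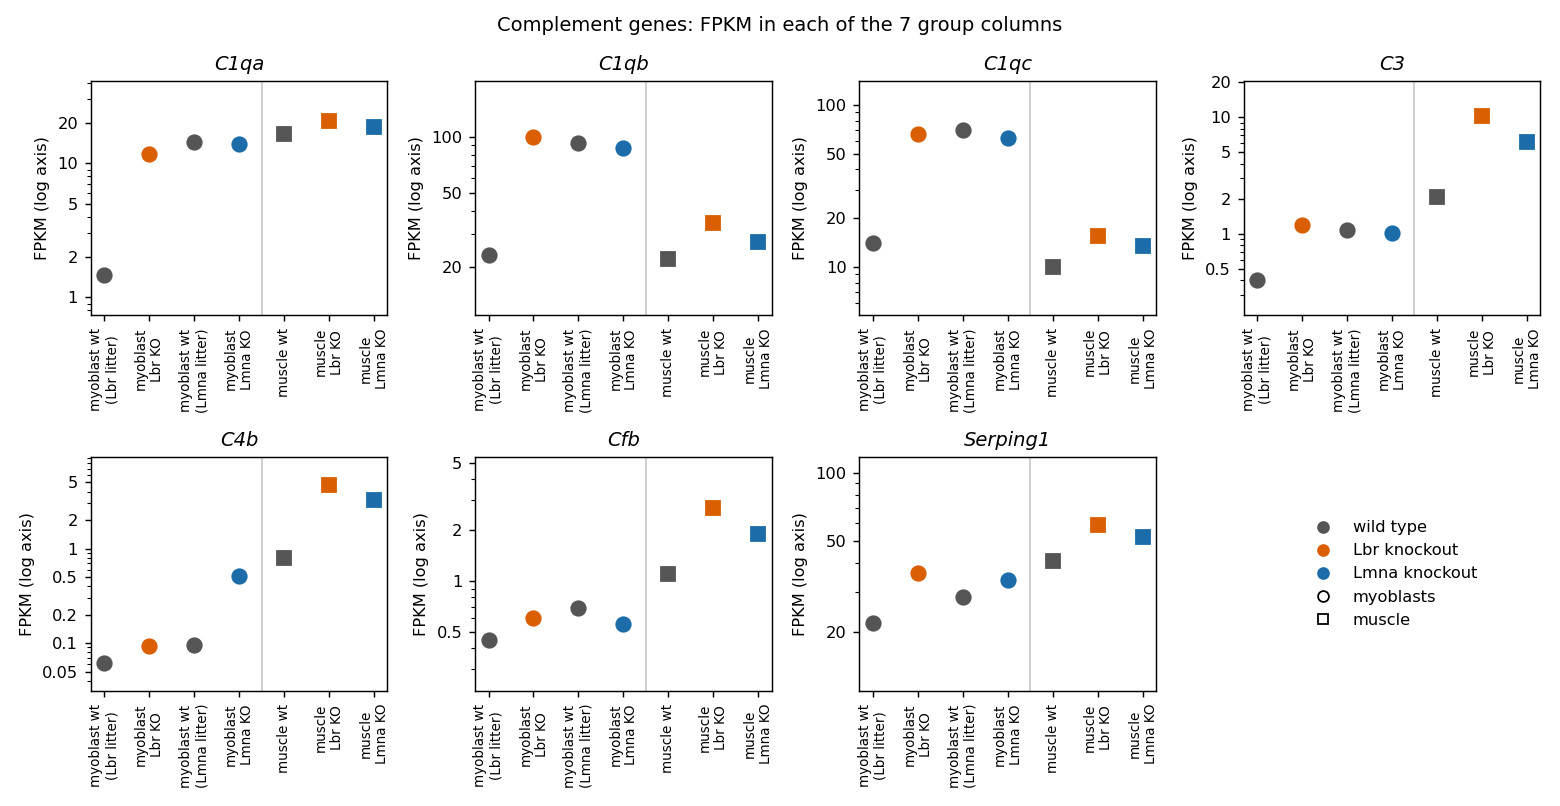
FPKM of each member (vertical log axis, its range set per gene) in the 7 group columns; circles are myoblasts, squares muscle, grey wild type, orange Lbr knockout and blue Lmna knockout, and no error bars exist. The wild-type myoblasts of the Lbr litter are the lowest myoblast column for all 7 genes, and wild-type muscle is the lowest and Lbr-knockout muscle the highest muscle column.

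All 7 members were above 0 in every column. In the myoblast columns other than the wild type of the Lbr litter, the order by level was C1qb, C1qc, Serping1, C1qa and C3, with Cfb and C4b last. In that wild type, Serping1 lay above C1qc, and Cfb above C3. In the 3 muscle columns Serping1 was highest, followed by C1qb, C1qa, C1qc and C3. Wild-type muscle had Cfb above C4b, whereas both knockouts had C4b above Cfb. Among all genes above 0 in wild-type muscle, Serping1 stood at the 93.1 percentile, C3 at the 45.7 and C4b at the 31.7 percentile. In Lbr-knockout muscle C3 stood at the 76.2 percentile and C4b at the 59.9. Neighbours in these orders have no spread over samples against which to set their distance.

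The C1q chains were the members that differed in myoblasts. C1qb stood at 23.3 FPKM in the wild type of the Lbr litter, 99.3 in the Lbr knockout, 92.2 in the wild type of the Lmna litter and 86.5 in the Lmna knockout. C1qc, in the same order, stood at 14.0, 66.5, 70.2 and 62.7 FPKM. C1qa stood at 1.47, 11.8, 14.3 and 13.9 FPKM. From the spacing of low values in the table, the lowest of these C1qa levels corresponds to about 24.4 fragments and the others to 145 to 244. For each chain 3 columns lay close together and the wild type of the Lbr litter was far below them. The separation therefore rests on 1 wild-type library, for which genotype, litter and library cannot be told apart.

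Compared with the wild type of its own litter, the Lbr knockout had 3 of the 4 compared members 2-fold higher, against 2.48% of the 11463 genes compared. The log2 differences were 2.38 for C1qa, 2.17 for C1qc and 2.04 for C1qb, FPKM ratios of 8.07, 4.74 and 4.26. Serping1, the remaining compared member, had a difference of 0.70. The median over these members was 2.11, that of all genes 0.05. Against the wild type of the Lmna litter the same knockout column showed -0.26 for C1qa, 0.11 for C1qb and -0.08 for C1qc, and none of the 3 differences from the own litter held. In bulk RNA, fewer cells of a type and less RNA per cell cannot be told apart.

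The difference between the wild types was as large as that between the Lbr knockout and its own control. With the Lmna litter set against the Lbr litter, 3 of 4 compared members were 2-fold higher (2.03% of 11504 genes), by 2.64 for C1qa, 2.24 for C1qc and 1.94 for C1qb. These 2 comparisons share the wild type of the Lbr litter. Lmna-knockout myoblasts had none of the 4 members past 2-fold against their own litter (1.2% of 11462 genes were past it in either direction), with -0.04 for C1qa, -0.09 for C1qb, -0.16 for C1qc and 0.25 for Serping1. Against the wild type of the Lbr litter the Lmna knockout had C1qa at 2.60, C1qc at 2.08 and C1qb at 1.85, and against the mean of both wild types C1qa remained past 2-fold at 1.28. Set directly against each other, the Lbr-knockout and Lmna-knockout myoblasts had 0 of 4 members past 2-fold (3.34% of 11466 genes), with C1qa at -0.22, C1qb at 0.20, C1qc at 0.08 and Serping1 at 0.09.

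**Figure D2:**
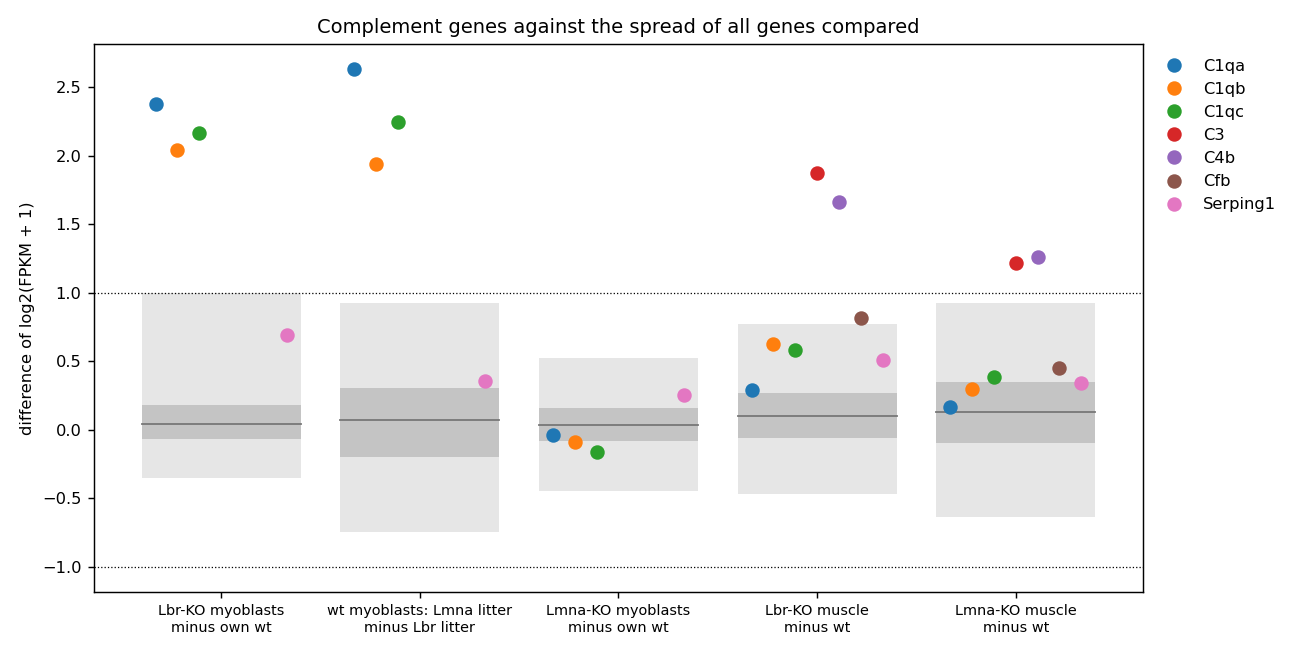
Difference of log2(FPKM + 1) for each compared member (coloured points) in 5 comparisons; the light and dark bands hold the central 95% and 50% of all genes compared, the line is their median and the dotted lines mark 2-fold. The C1q chains lie above 1.9 in both comparisons with the wild type of the Lbr litter and below 0 for Lmna-knockout myoblasts against their own litter, and C3 and C4b lie above 1 in both muscle comparisons.

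Macrophage genes moved with C1q in the myoblast columns. Of 19 macrophage markers compared, 18 rose in the Lbr knockout against its own litter (median 1.60), 15 were 2-fold higher in the wild type of the Lmna litter than in that of the Lbr litter (median 1.53), and 0 were past 2-fold in the Lmna knockout against its own litter (median -0.29). Csf1r, the receptor of the macrophage growth factor, stood at 10.4 FPKM in the wild type of the Lbr litter, 38.9 in the Lbr knockout, 39.2 in the wild type of the Lmna litter and 32.1 in the Lmna knockout. C1qb per unit of Csf1r stayed between 2.24 and 2.69 in the 4 columns. Csf1r was named after its values were seen and is among the genes most like C1qb, so this likeness follows in part from that choice. Over the median of the whole macrophage list, C1qb stood at 5.02, 6.30, 6.00 and 7.01 in the same order, lowest in the wild type of the Lbr litter. C1qc per unit of Csf1r ran from 1.35 to 1.95. C1qa per unit of Csf1r was 0.141 in the wild type of the Lbr litter and 0.304 to 0.432 in the other 3. C1qa was thus low in that library relative to Csf1r as well, although its value there rests on few fragments. No marker of the macrophage list was at 0 in any column, whereas each myoblast column had 3 to 6 of 12 lymphocyte markers at 0. Of 12 fibroblast markers 0 rose in the Lbr knockout (median 0.10). Myoblast and muscle markers moved between the columns as well, in an order unlike that of C1q: their summed level was 138 FPKM in the wild type of the Lbr litter, 446 in the Lbr knockout, 257 in the wild type of the Lmna litter and 77.3 in the Lmna knockout. Of 8 compared, 7 rose in the Lbr knockout (median 1.58) and 3 were 2-fold higher in the wild type of the Lmna litter than in that of the Lbr litter (median 0.75). In the Lmna knockout 5 of 7 fell against its own litter (median -1.12), where no C1q chain was past 2-fold. The part of macrophage or muscle cell content in the C1q differences was not tested.

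**Figure D3:**
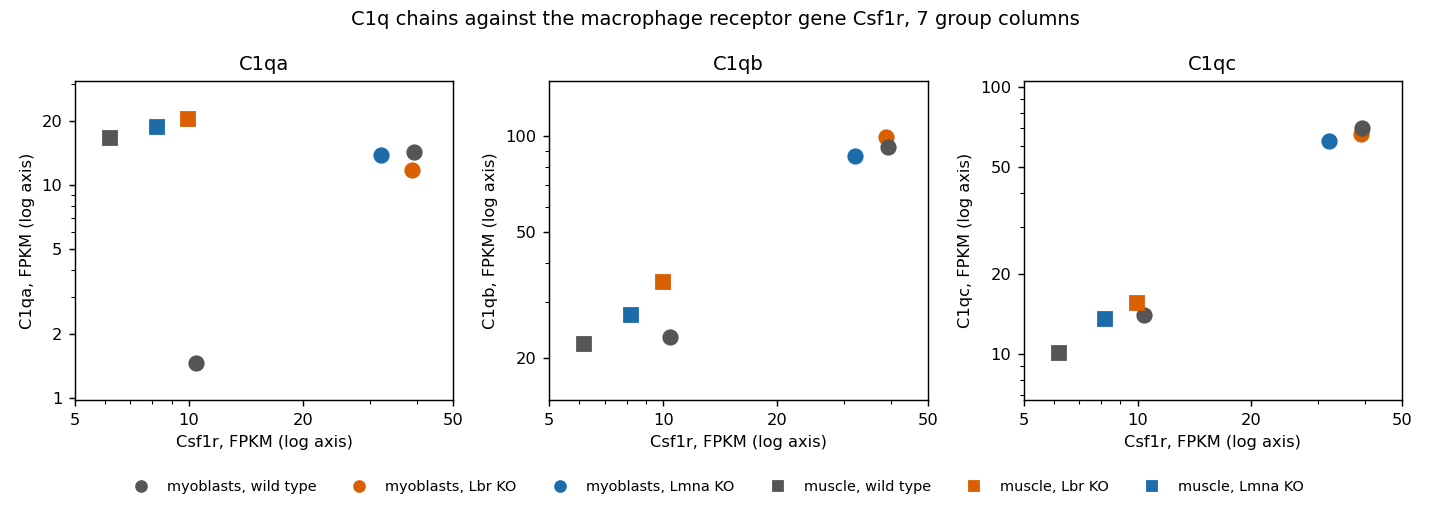
FPKM of each C1q chain (vertical log axis) against FPKM of Csf1r (horizontal log axis) in the 7 columns, with circles for myoblasts and squares for muscle. C1qb and C1qc rank with Csf1r across most columns, while C1qa is higher in the 3 muscle columns, at low Csf1r, than in any myoblast column.

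The chains were not in constant proportion. The 3 chains assemble into the same molecule, yet C1qa had 0.0629, 0.119, 0.155 and 0.161 of the C1qb level in the myoblast columns, listed in the order used above. In wild-type, Lbr-knockout and Lmna-knockout muscle it had 0.754, 0.593 and 0.686 of the C1qb level. The groups of columns did not overlap, and muscle was higher. For C1qc the share of the C1qb level was 0.602 to 0.762 in myoblasts and 0.448 to 0.490 in muscle, again without overlap but with muscle lower. The library kits differed between the tissues, and their part in these ratios was not tested.

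Serping1 varied less than the C1q chains in myoblasts, at 21.9, 36.0, 28.3 and 33.9 FPKM in the same order. In the Lbr knockout against its own litter, the Serping1 difference of 0.70 stood at the 95.7 percentile of all genes compared. Both knockouts were above both wild types, by less than 2-fold. C3, Cfb and C4b had a mean below 1 FPKM in myoblasts and were not among the compared genes there. C3 was at 0.401, 1.19, 1.07 and 1.01 FPKM and Cfb at 0.446, 0.600, 0.690 and 0.558 FPKM. C4b stood at 0.0620, 0.0921, 0.0946 and 0.508 FPKM, with the Lmna knockout above the other 3. From the spacing of low values in the table, the highest of these C4b levels corresponds to about 33.2 fragments and the others to 5.35 to 8.35, so that the deposited FPKM ratio of 5.37 between the Lmna knockout and its wild type rests on few fragments. All 7 members were lowest in the wild type of the Lbr litter, although C3, Cfb and C4b did not pass the filter. Of the 11447 genes that passed it and were above 0 in all 4 columns, 37.4% were lowest there.

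In muscle the members that rose were C3 and C4b. C3 stood at 2.05 FPKM in wild type, 10.2 in the Lbr knockout and 6.09 in the Lmna knockout. C4b stood at 0.789, 4.68 and 3.29 FPKM in the same order. Both knockout columns lay well above wild type, and the Lbr knockout above the Lmna knockout. The FPKM ratios to wild type were 4.97 and 2.97 for C3 and 5.93 and 4.17 for C4b.

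On the log2 scale C3 rose by 1.88 and C4b by 1.67 in Lbr-knockout muscle, 2 of 7 members against 1.3% of 12080 genes that were 2-fold higher. In Lmna-knockout muscle C3 rose by 1.22 and C4b by 1.26, again 2 of 7 against 1.93% of 12068 genes. The 2 comparisons share their wild-type column. C4b passed the filter on low values through the knockout columns, so its place among the compared genes depends on the columns in which it is high. By the estimate from low values, C4b rested on about 17.5 fragments in wild type, 80.5 in the Lbr knockout and 32.6 in the Lmna knockout, and C3 on 43.5, 168 and 57.6.

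C4b shares nearly all of its sequence with C4a, the sex-limited protein gene, and no source used here says how shared fragments were assigned. C4a stood at 0.190, 0.759 and 0.446 FPKM in wild-type, Lbr-knockout and Lmna-knockout muscle, below the level compared. Added together, C4a and C4b stood at 0.979, 5.44 and 3.74 FPKM, so the sum ordered the columns as C4b alone did. The value of either gene is uncertain for this reason.

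Cfb, which cleaves C3 once bound to C3b, stood at 1.11 FPKM in wild-type muscle, 2.71 in the Lbr knockout and 1.88 in the Lmna knockout. Its log2 differences of 0.82 and 0.45 did not reach 2-fold. The estimated support was 9.54 to 23.9 fragments. With a pseudocount of 0.1 in place of 1 the Lbr value was 1.22, so the call for this low gene depends on the pseudocount.

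The C1q chains and Serping1 showed the same order of muscle columns at smaller differences. C1qb stood at 22.1 FPKM in wild type, 34.7 in the Lbr knockout and 27.4 in the Lmna knockout. C1qc stood at 10.04, 15.6 and 13.5 FPKM and C1qa at 16.7, 20.6 and 18.8 FPKM. Serping1 stood at 40.9, 58.7 and 52.0 FPKM. None reached 2-fold: in the Lbr knockout the log2 differences were 0.63 for C1qb, 0.58 for C1qc, 0.29 for C1qa and 0.51 for Serping1. In the Lmna knockout they were 0.30, 0.39, 0.16 and 0.34.

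All 7 members were above wild type in both muscle knockouts, where 66.6% of genes were above wild type in the Lbr knockout and 65.5% in the Lmna knockout. The median over members was 0.63 for Lbr and 0.39 for Lmna, with 0.10 and 0.13 over all genes. Wild-type muscle was the lowest and Lbr-knockout muscle the highest column for all 7, an order held by 20.1% of 12054 genes. With each column centred on its median the shift over all genes was removed (-0.02 for Lbr and -0.01 for Lmna) and the members' medians were 0.51 and 0.25, with 7 of 7 above 0 and 2 past 2-fold in each. Centring also lowered the share of higher genes among all genes past 2-fold from 83.1% to 72.7% for Lbr and from 71.7% to 53.9% for Lmna. Set directly against the Lmna knockout, the Lbr knockout had 0 of 7 members past 2-fold (1.49% of 12069 genes), with all 7 differences above 0, from 0.12 for C1qa to 0.66 for C3.

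Markers of other cell types moved in muscle as well. Of 11 lymphocyte markers compared, 6 rose in the Lbr knockout (median 1.19) and 4 in the Lmna knockout (median 0.86). The summed level of the list was 15.3 FPKM in wild type, 62.7 in the Lbr knockout and 38.2 in the Lmna knockout. Ms4a1, Cd3e, Cd3d, Cd2, Lck, Cd8a and Cd4 were below 1 FPKM in wild type and passed the filter through the knockout columns. The counts and medians of this list are therefore partly set by the filter. Cd79a, a chain of the B cell receptor, stood at 2.93 FPKM in wild type, 18.4 in the Lbr knockout and 9.08 in the Lmna knockout. That is the order of the members and of 20.1% of genes. Among the compared lymphocyte markers, Cd2 (0.934, 4.12 and 4.77 FPKM) and Cd8a (0.460, 1.40 and 1.66 FPKM) were instead highest in the Lmna knockout. The others kept the order of Cd79a. Of 17 macrophage markers 4 rose in the Lbr knockout, Ptprc, Ctss, Laptm5 and Cd53 (median 0.57), and 2 in the Lmna knockout, Ptprc and Laptm5 (median 0.43), with summed levels of 127, 183 and 173 FPKM. C1qb per unit of Csf1r was 3.57, 3.48 and 3.34, and over the median of the macrophage list it was 7.11, 7.33 and 5.89.

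The liver is the main source of plasma complement, and its secreted proteins gave a signal in muscle. Of 6 compared genes of this list 4 rose in the Lbr knockout, Ahsg, Apoa2, Apoa1 and Alb (median 1.20). Ahsg and Apoa2 stood at 0.132 and 0.443 FPKM in wild type and passed the filter through the Lbr-knockout column, at 2.67 and 2.66 FPKM. All 4 were highest in that column, so this count and median are partly set by the filter. Alb stood at 1.54 FPKM in wild type, 4.53 in the Lbr knockout and 0.281 in the Lmna knockout, an order of columns unlike that of C3 and C4b. In the Lmna knockout 0 of 5 compared genes of the list were past 2-fold (median 0.30). Alb (-0.99) and Apoa1 (-0.61) were lower there, and Ahsg, Serpina1a and Trf were higher. Apoa2 was at 0 in that column and was left out. The summed level of the list was 8.09, 24.3 and 7.52 FPKM, with 1, 0 and 3 of 10 genes at 0. Adipocytes make C3 and factor D. Of 8 adipocyte markers 1 rose in the Lbr knockout (Retn, median 0.23), and 0 rose and 1 fell in the Lmna knockout (Lep, median -0.19). Adipoq came close in the Lbr knockout, at 21.0 FPKM against 10.8 in wild type (0.90), whereas Lep was lower there (-0.34). In the Lbr knockout against the Lmna knockout, Retn (1.93), Adipoq (1.12) and Plin1 (1.05) were 2-fold higher. The other adipocyte markers were within 2-fold in either direction. None of 12 fibroblast markers (medians 0.04 and 0.01) or of 8 endothelial markers (0.18 and 0.32) was past 2-fold in either knockout. The part of these cell types in the differences of C3 and C4b was not tested.

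**Figure D4:**
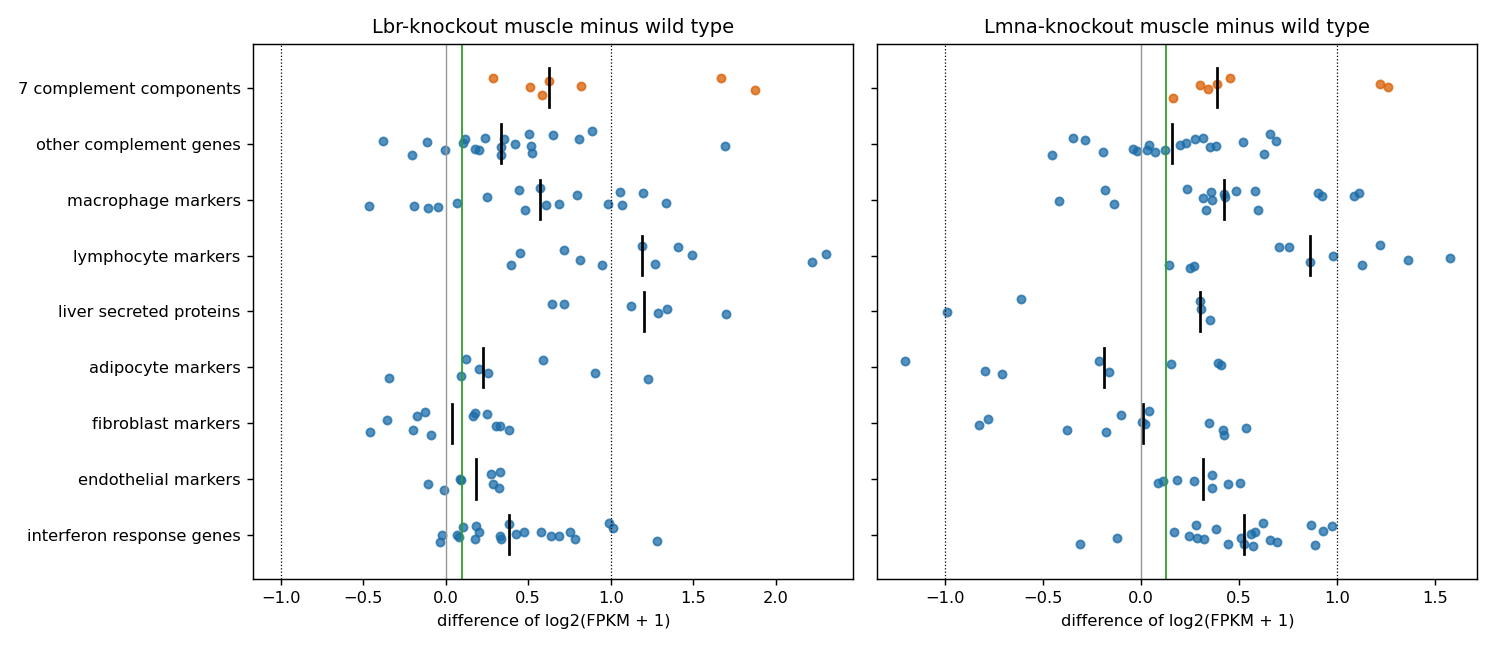
Each point is a compared gene of a list, placed by its difference of log2(FPKM + 1) from wild-type muscle in the Lbr knockout (left) and the Lmna knockout (right); black bars are list medians, the green line is the median of all genes and dotted lines mark 2-fold. The lymphocyte markers have medians of 1.19 and 0.86, and the liver list has its median at 1.20 on the left and at 0.30 on the right. Genes of both lists passed the filter on low values through knockout columns, so these medians are partly set by the filter.

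Genes of interferon and acute-phase responses, which are known to accompany induction of C3, C4 and factor B, were examined alongside. Of 21 interferon response genes 2 rose in the Lbr knockout, H2-K1 and Tap1 (median 0.38), and 0 in the Lmna knockout (median 0.52). H2-K1, a class I antigen-presenting gene, stood at 24.5 FPKM in wild type, 61.0 in the Lbr knockout and 46.2 in the Lmna knockout. Of 15 acute-phase and NF-kappaB genes 1 rose in the Lbr knockout, the haptoglobin gene Hp (4.38 to 23.9 FPKM, log2 difference 2.21, median of the list 0.28). In the Lmna knockout 2 rose, Lcn2 (2.26) and Hp (1.41), and Orm1 fell (-2.02), with a median of 0.42. Of the 12 compared genes beside C4b and Cfb on chromosome 17, 0 were past 2-fold in either knockout (medians 0.27 and 0.13). These 12 do not include Cfb itself or C4a, which was too low to be compared and stood at 0.190 FPKM in wild type, 0.759 in the Lbr knockout and 0.446 in the Lmna knockout, above wild type in both.

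The table held 45 further complement genes, and 22 of them averaged 1 FPKM or more in a tissue. Among the receptors, C5ar1, the receptor of the C5a fragment, followed C1q in myoblasts. It stood at 10.9 FPKM in the wild type of the Lbr litter, 42.0 in the Lbr knockout, 58.5 in the wild type of the Lmna litter and 39.4 in the Lmna knockout. All 5 receptor genes compared rose in the Lbr knockout against its own litter: C5ar1 (1.85), the integrin chains Itgb2 (1.51) and Itgam (1.46) of complement receptor 3, the C3a receptor gene C3ar1 (1.41) and Cd93 (1.19). Of these, 4 were also 2-fold higher in the wild type of the Lmna litter than in that of the Lbr litter, and Cd93 was at 0.67. In muscle 4 of these receptors were compared, and none was past 2-fold on the log2(FPKM + 1) scale in either knockout. Itgam averaged below 1 FPKM there and was not compared, at 0.394 FPKM in wild type, 0.918 in the Lbr knockout and 0.656 in the Lmna knockout.

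Of all 17 further complement genes compared in myoblasts, 7 rose and 1 fell in the Lbr knockout (median 0.84), and 0 were past 2-fold in the Lmna knockout (median -0.11). Besides the receptors these were Cfp, Clu and Cd59a. Cfp, the gene of properdin, which stabilises the alternative pathway enzyme, stood at 2.40, 12.9, 11.8 and 9.88 FPKM in the order used above. Clu, the gene of clusterin, a regulator of the terminal complex, stood at 0.344, 2.26, 0.727 and 1.25 FPKM (log2 difference 1.28 for the Lbr knockout). It passed the filter on low values through the Lbr-knockout column, so its place among the 7 depends on the column in which it is high. Cd59a, which blocks assembly of the membrane pore, fell by 1.25: it stood at 39.4 FPKM in the wild type of the Lbr litter, 16.0 in the Lbr knockout, 60.1 in the wild type of the Lmna litter and 55.9 in the Lmna knockout. For Cd59a, unlike the C1q chains, the knockout and not the wild type of the Lbr litter was the column apart. Set directly against Lmna-knockout myoblasts, Cd59a was lower by 2-fold in the Lbr knockout (-1.75), and Colec12, a collectin gene, was higher by 2-fold, at 26.1 against 12.5 FPKM. The wild types of the same litters had Colec12 at 22.7 and 12.6 FPKM.

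Of 20 further complement genes compared in muscle, 1 rose in the Lbr knockout (median 0.34) and 0 were past 2-fold in the Lmna knockout (median 0.16). The one that rose was Cfd, the gene of factor D, an adipocyte protease that activates factor B. It stood at 67.6 FPKM in wild-type muscle, 220.5 in the Lbr knockout (log2 difference 1.69) and 66.6 in the Lmna knockout (-0.02), so that C3 and C4b were above wild type in both knockouts and Cfd in one of them. The C1 protease genes C1ra and C1s stood at 7.95, 13.0 and 12.8 FPKM and at 15.0, 17.4 and 15.5 FPKM, and C2 at 2.75, 4.32 and 2.84 FPKM, all within 2-fold. The 6 genes of the terminal pathway in the table, Hc, C6, C8a, C8b, C8g and C9, were at most 0.168 FPKM in myoblasts and 1.19 FPKM in muscle, and none reached a mean of 1 FPKM.

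**Figure D5:**
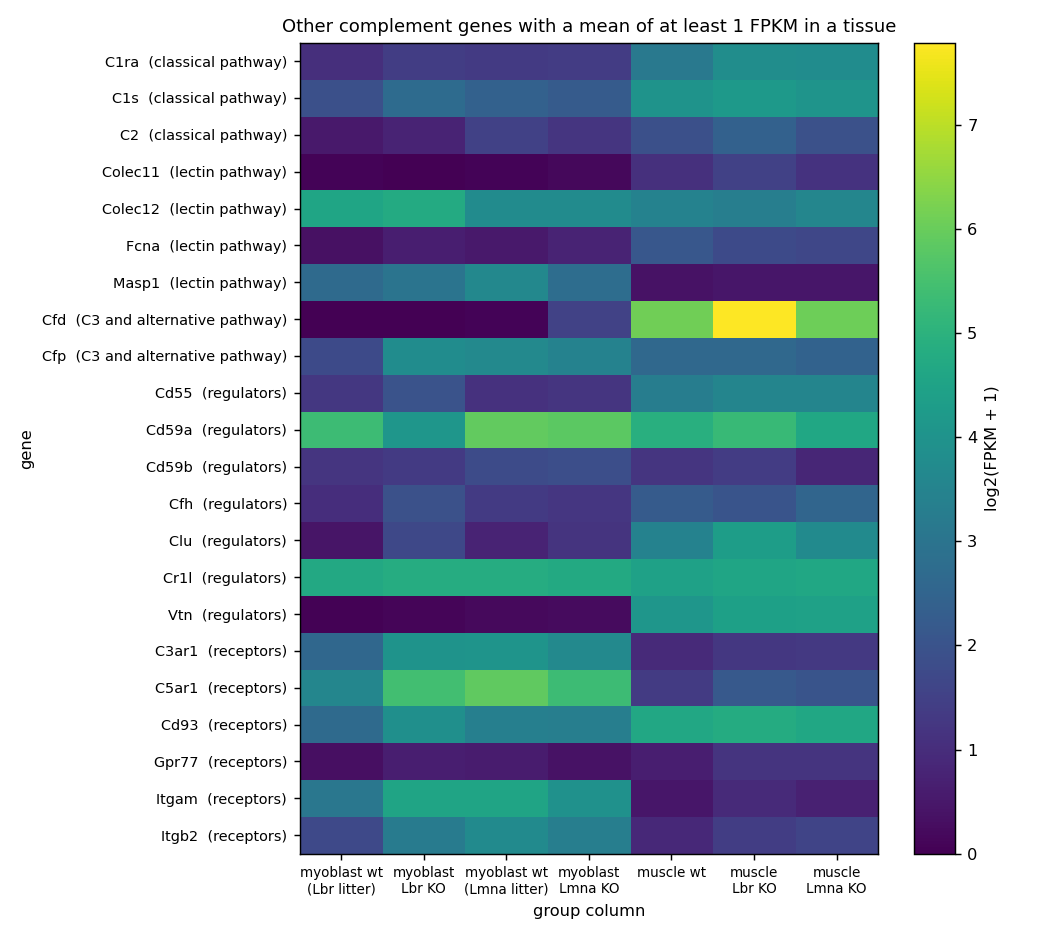
Heat map of log2(FPKM + 1) for the 22 further complement genes that averaged 1 FPKM or more in a tissue (vertical axis, with their role) in the 7 columns. The receptor genes C3ar1, C5ar1, Itgam and Itgb2 are dark in the wild-type myoblasts of the Lbr litter relative to the other 3 myoblast columns, and Cfd is brightest in Lbr-knockout muscle.

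The tissues were compared in a limma model of all 7 columns with tissue and genotype as additive terms, in which the spread comes from departures from additivity and from the 2 wild-type myoblast libraries (3 residual degrees of freedom) and not from animals within a group. C1qb and C1qc were lower in muscle and Serping1 was higher. Muscle minus myoblast log2 differences, with limma p-values after Benjamini-Hochberg adjustment over 12001 genes, were -1.88 (SE 0.46, adjusted p = 0.00559) for C1qc and -1.35 (SE 0.41, adjusted p = 0.0148) for C1qb. Serping1 had 0.67 (SE 0.15, limma adjusted p = 0.00296). C3, C4b and Cfb averaged below 1 FPKM in myoblasts and entered this fit through the muscle columns, in which they are high. Their differences of 1.59, 1.46 and 0.80 are therefore given as a description, without a p-value.

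C1qa, at 0.96 (SE 0.55, adjusted p = 0.144), did not pass in this limma fit, and without the wild type of the Lbr litter it stood at 0.46 with an adjusted p of 0.0316. Without the wild type of the Lmna litter it stood at 1.33, with a limma adjusted p of 0.0177. In the same fit C1qb had an adjusted p of 0.0519 without wild-type muscle. The share of all genes called was 78.9%, so that 6 of 7 members called, the 3 that entered through muscle among them, is near the background and is no result about the members. The muscle columns all exceeded the myoblast columns for 5 of 7 members, against 26.9% of genes. Of these 5, C3, C4b and Cfb passed the filter through the muscle columns, so the count is partly set by the filter. The others were C1qa and Serping1. For C1qb and C1qc the muscle columns overlapped the myoblast range, through the wild type of the Lbr litter.

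Wild types alone were compared by the size of the difference, with no test. Past 2-fold were C1qa (1.52, muscle higher), C1qb (-1.04) and C1qc (-1.57), 3 of 7 members against 53.8% of 12145 genes. C3 (0.84), C4b (0.73), Serping1 (0.70) and Cfb (0.43) had differences below the threshold of 1. C1qa, the member that did not pass in the limma fit, was past this threshold and those 4 were not. Without the added 1 FPKM, the ratio of wild-type muscle to wild-type myoblasts was 10.1 for C4b (0.789 against 0.0783 FPKM). That ratio was 2.79 for C3 (2.05 against 0.737 FPKM), 1.95 for Cfb and 1.63 for Serping1. C4b and C3 thus fell short of the threshold only through the pseudocount. C4b was below 1 FPKM in these wild types and was compared because of the knockout muscle columns. The median of all genes lay at -0.55, and centring the columns changed the share of higher genes among those past 2-fold from 32.2% to 55.0% and brought 5 members past it, C1qa, C3, C4b and Serping1 higher and C1qc lower. With the Lmna-litter wild type as the only control C1qa stood at 0.21, and with the Lbr-litter wild type as the only control C1qb stood at -0.07 and C1qc at -0.45. Macrophage markers were mostly lower in muscle, 12 of 20 by 2-fold and 2 higher (median -1.27). Cd163, a marker of tissue macrophages, was an exception, at 0.0356 to 0.0919 FPKM in myoblasts and 3.01 to 5.07 FPKM in muscle, and all 8 endothelial markers were 2-fold higher in muscle.

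Effects of a knockout common to both tissues were tested in the same limma fit. For Lbr 0 of 12001 genes passed at an adjusted p of 0.05 (0%), with 254 at an unadjusted p under 0.05. The members' estimates were all above 0, with C3 at 0.99 (SE 0.34) and Serping1 at 0.52 (SE 0.17) and an adjusted p of 0.9998 for all 7. The unadjusted limma p-value of Serping1 was 0.0171, which did not hold after adjustment. For C3 the unadjusted value is left out, since C3 entered the fit through the muscle columns in which it is high. For Lmna 1 gene passed (0.00833%), with 447 at an unadjusted p under 0.05, and no member did. Its estimates ran from 0.16 for Cfb to 0.82 for C1qa, with adjusted p of 0.965 to 0.968. A second limma fit, restricted to myoblasts and pooling their wild types (4 columns, 1 residual degree of freedom), called 0.323% of 11447 genes for Lbr and 0.411% for Lmna, and no member. There the Lbr knockout had C1qb at 1.08 (SE 0.48), C1qa at 1.06 (SE 0.54) and C1qc at 1.04 (SE 0.51), each with an adjusted p of 1.00, and the Lmna knockout had 0.88, 1.28 and 0.96.

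The genes most like each member were sought by Pearson r over the 7 columns after centring each tissue, among sufficiently variable genes that averaged 1 FPKM or more in both tissues, as a description without a test. C1qb was closest to C1qc (r = 0.995), Csf1r (0.995) and Lst1 (0.991) of 894 genes. C1qc was closest to Stab1 (0.997), Dok2 (0.996) and C1qb, and C1qa to Stab1 (0.994), Dok2 (0.990) and Lyz1 (0.990). The points share the low library of the Lbr litter, which sets much of these values. C3 was closest to Hmha1 (0.979), Vav1 (0.968) and H2-K1 (0.962) of 1659 genes, and its r with C1qb was 0.573.

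Hmha1 stood at 1.54 FPKM in wild-type muscle, 7.30 in the Lbr knockout and 5.36 in the Lmna knockout, a spacing much like that of C3. That likeness follows from the choice of Hmha1 by its r with C3 over these same columns. C4b was closest to Limd2 (0.975), 1300002E11Rik (0.973) and 1500002O20Rik (0.952) of 2277 genes. Cfb was closest to BC096441 (0.994), Glipr1 (0.984) and B4galnt1 (0.979) of 8198 genes, and Serping1 to 2310039H08Rik (0.992), Evi2b (0.990) and Uap1l1 (0.989) of 7688. C3, C4b and Cfb themselves averaged below 1 FPKM in myoblasts, so their r values rest in part on low values. Each of these matches is the best of many genes over only 7 columns.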

How the data were processed

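RNA was extracted with TRIZOL and RNeasy and made into libraries with NuGEN kits, per the labels' protocols. The authors deposited FPKM values, 1 per gene and group. Per the submitters' processing notes the build was mm9; which aligner, quantification software and annotation were used is not given in the sources used here. All columns were assigned to groups from their names, leaving 0 value columns unmatched. Because the reference at hand is of another build, it served for names, gene order, promoter sequences and transcript lengths only.

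Differences used log2(FPKM + 1) with a filter of a mean of 1 FPKM over the columns of a tissue (of all columns between tissues). The alternatives comprised pseudocounts of 0.1 and 5, a filter of 5 FPKM or none, median centring, quantile normalization, other controls and omission of columns. Models used limma 3.58.1 in R 4.3.3 with a trended variance prior (4.97 prior degrees of freedom for 7 columns, 25.8 for 4). Other steps used Python 3.11.15. Both calculations were tested on simulated data.

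Depth is unknown. Fragments per FPKM were estimated from the spacing of low values of 4179 genes with 1 transcript: 23.5 to 32.8 per FPKM of a 2 kb transcript in myoblasts and 3.68 to 8.24 in muscle, the lowest, Lmna-knockout muscle, with a weak peak. The estimate depends on how samples were combined.

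The members and lists were chosen with earlier results of these data known. Named were all members, further complement genes past 2-fold in a knockout, at most 4 genes of each other list by size, Lbr and Lmna, and the 3 most similar genes per member. Csf1r, Cd163, Ckm, Lyz2, Myod1, C4a, C1ra, C1s and C2 were named outside this rule, after their values were seen.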

Additional observations from a re-analysis of the deposited data

Results flagged for a closer look

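The C1q chains were below wild type in Lmna-knockout myoblasts and above wild type in Lmna-knockout muscle. Muscle minus myoblasts, the knockout differences on the log2 scale were 0.20 apart for C1qa (-0.04 in myoblasts, 0.16 in muscle), 0.39 apart for C1qb (-0.09 and 0.30) and 0.55 apart for C1qc (-0.16 and 0.39). These differences between tissues were not tested, since each group has 1 column, and every value behind them is below 2-fold. By the estimate from low values, Lmna-knockout muscle had about 36.0 fragments for C1qa, 55.0 for C1qb and 29.8 for C1qc. Against the wild type of the Lbr litter the myoblast values were 2.60, 1.85 and 2.08, so the opposite direction rests on the choice of the wild-type library.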

How the results depend on the processing

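No paired analysis was possible because the table holds 1 column per group. Of the member values, 543 kept their side of the threshold, 15 passed it under an alternative, 13 lost it and 2 reversed; the cause was not tested. The reversed values were C1qa (-0.26) and C1qc (-0.078) in Lbr-knockout myoblasts against the other litter's wild type, where members past 2-fold went from 3 to 0; for the Lmna knockout they went from 0 to 3 (1 with the mean of both wild types) and all genes from 138 to 518, and for Lbr with both wild types all genes went from 298 to 152. Members past 2-fold in Lbr-knockout muscle went from 2 to 1 with a pseudocount of 5 or a filter of 5 FPKM, which leaves 5 members, and in Lmna-knockout muscle to 0 and 1. C4b then stood at 0.74 and 0.52 and C3 in the Lmna knockout at 0.65 (pseudocount of 5). Between wild-type tissues 3 members became 5 with a pseudocount of 0.1 or centring and 1 with a pseudocount of 5 (all genes 6532 to 4115). In the order Lbr myoblasts, Lmna myoblasts, Lbr muscle, Lmna muscle, wild-type litters, knockout muscles and knockout myoblasts, all genes past 2-fold numbered 298, 138, 189, 325, 312, 180 and 383. With a pseudocount of 0.1 they numbered 486, 223, 457, 725, 620, 404 and 670, with 5 they numbered 86, 32, 48, 98, 93, 56 and 134, and with the filter of 5 FPKM 132, 60, 67, 187, 197, 109 and 238. Quantile normalization gave 65.3% and 51.8% of calls higher in Lbr and Lmna muscle and 44.6% between wild-type tissues, and moved the tissue difference of C1qa to 1.44 (limma adjusted p 0.0297) and of C1qb to -0.98 (0.0681). Leaving out 1 column at a time, the limma calls ranged from 0 to 1 for Lbr and from 1 to 4 for Lmna in both tissues, and the 37 calls for Lbr in the myoblast fit became 14 and 71 with pseudocounts of 0.1 and 5. Low muscle values rest on few fragments, which limits C4b and Cfb most. In Lmna-knockout muscle it also limits C1qc and C1qa, at about 29.8 and 36.0 fragments.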
